A study of Mus musculus with 6 samples.

Results

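The insulin signalling and glucose transport genes described here are Insr, Irs1, Irs2, Pik3r1, Akt2, Tbc1d4, Slc2a4, Slc2a1, Grb14 and Foxo1. The rule that picked them lists them by name and uses no measured value, and all 10 were found among the 57180 genes of the deposited table. All 10 passed the minimum of 1 TPM on average, as did 15446 genes in all. TPM is a share of all transcripts in a library, corrected for transcript length and scaled to a fixed total. The samples were groin fat, a subcutaneous white adipose depot called inguinal, from male wild-type mice. One group of 3 samples had a high-fat diet with 0.5% hesperidin, a flavonoid glycoside of citrus peel (HEP), and the other group of 3 samples had the high-fat diet alone (HFD). The diets lasted 12 weeks, and all 6 samples carried the same batch label. All were fed the high-fat diet, so the comparison is of hesperidin on top of that diet, and lean animals were not analysed here. The labels gave neither the age of the mice nor whether each sample was a separate animal, so p-values rest on the spread among these 6 samples, which may be technical.

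Insulin binds its receptor, encoded by Insr, which phosphorylates the insulin receptor substrates encoded by Irs1 and Irs2. These recruit phosphoinositide 3-kinase through its regulatory subunit, the product of Pik3r1, and the lipid it makes activates the kinase AKT2. In fat cells AKT2 phosphorylates TBC1D4, also called AS160, a Rab GTPase-activating protein that otherwise holds back vesicles carrying the glucose transporter GLUT4. GLUT4, encoded by Slc2a4, then moves to the cell surface, while GLUT1, encoded by Slc2a1, supplies basal glucose uptake in many cell types. GRB14 is an adaptor that binds and inhibits the active receptor, and FOXO1 is a transcription factor that AKT keeps out of the nucleus. Most of this control acts on proteins by phosphorylation and movement, which transcript levels do not measure.

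The promoters of the genes for both substrates are shown because transcription of Irs2 is known, in mouse liver, to respond to FOXO1 through an insulin response element beside an E-box. The windows run from 250 bases before to 50 after the transcription start, from RefSeq, build GRCm38.p6, and are read in the direction of the gene. Capitals mark TGTTTTG, the core of the insulin response element, and CACGTG, the palindromic E-box. TGTTTAC, the FOXO core, was searched as well, all on both strands.
Irs1 promoter, chr1:82291390-82291689, minus strand: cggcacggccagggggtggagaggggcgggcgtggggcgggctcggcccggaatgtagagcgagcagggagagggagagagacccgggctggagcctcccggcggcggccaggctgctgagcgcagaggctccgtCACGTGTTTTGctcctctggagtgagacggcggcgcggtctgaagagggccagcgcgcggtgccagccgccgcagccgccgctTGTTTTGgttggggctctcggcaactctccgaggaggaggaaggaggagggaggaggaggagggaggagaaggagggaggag
Irs2 promoter, chr8:11008880-11009179, minus strand: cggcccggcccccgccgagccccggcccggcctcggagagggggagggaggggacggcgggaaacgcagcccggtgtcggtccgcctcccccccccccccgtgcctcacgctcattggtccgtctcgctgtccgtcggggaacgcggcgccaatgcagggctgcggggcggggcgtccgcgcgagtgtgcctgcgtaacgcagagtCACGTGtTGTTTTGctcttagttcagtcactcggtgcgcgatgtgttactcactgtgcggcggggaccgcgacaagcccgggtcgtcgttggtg
Counted from 1 at the first base of the window, the Irs2 promoter had CACGTG at bases 207 to 212 and TGTTTTG at 214 to 220. The Irs1 promoter had CACGTG at 136 to 141, overlapped by TGTTTTG at 140 to 146, and a further TGTTTTG at 219 to 225. Of the 10 genes 8 had an entry in the promoter table, with 12 windows between them, and Insr and Slc2a4 had none. TGTTTTG and CACGTG each occurred in 2 of these windows, those shown, and TGTTTAC in 0. Among all 32851 windows, 6.28% held TGTTTTG, 7.15% held CACGTG, 3.65% held TGTTTAC and 0.408% held both of the first pair. The pair started within 8 bases of each other in 9 windows of 8 genes, a distance chosen after these sequences were seen. A match describes letters in a window and not binding.

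The libraries differed in the transcripts of several cell types. Adipocyte genes were abundant in every library, with 2393, 3926 and 2151 TPM of Adipoq, the adiponectin gene, in HEP replicates 1 to 3 and 3473, 4211 and 2891 TPM in HFD replicates 1 to 3. All 10 adipocyte markers had lower HEP means, with summed levels of 35926 to 56782 TPM in HEP and 48791 to 61074 TPM in HFD. The 8 B cell markers summed to 6.89 TPM in HEP replicate 2 and to 6.02 and 6.68 TPM in HFD replicates 1 and 2, but to 1101 and 1183 TPM in HEP replicates 1 and 3 and 544 TPM in HFD replicate 3. The 8 T cell markers followed them, with 587, 9.91 and 633 TPM in HEP and 6.31, 12.4 and 433 TPM in HFD. The 10 skeletal muscle markers summed to 1364, 11746 and 51.8 TPM in HEP and to 182, 570 and 76.3 TPM in HFD. Liver markers were highest in HEP replicate 2 and HFD replicate 1, with 1024 and 664 TPM of Alb, the albumin gene. In bulk tissue, fewer cells of a type and less RNA per cell cannot be told apart.

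The comparison of HEP with HFD asks how hesperidin bore on these genes under a high-fat diet, and no gene passed the test in either direction. With limma on log2(TPM + 1), 0 of the 10 genes had an adjusted p under 0.05, against 0% of all tested genes. At an unadjusted p under 0.05 there were also 0 of 10, against 1.81% of all tested genes. Down-weighting variable libraries with limma's sample quality weights put 5 of the 10 at an unadjusted p under 0.05, against 32.9% of all tested genes, and 0 at an adjusted p under 0.05. Those 5 were Grb14, Slc2a4, Irs1 and Akt2 at log2 fold changes of -0.78, -0.65, -0.70 and -0.47, and Tbc1d4 at 0.89. Leaving out HEP replicate 2 put 3 of the 10 there, Grb14, Slc2a4 and Tbc1d4, against 23.8% of all tested genes. That left in HEP only replicates 1 and 3, both rich in B and T cell markers. HEP and HFD values overlapped for all 10, while 5.46% of tested genes showed no overlap. The mean log2 level was lower in HEP for 7 of the 10 (background 41.4%), namely Insr, Irs1, Irs2, Pik3r1, Akt2, Slc2a4 and Grb14, and higher for the other 3 (background 58.6%), Tbc1d4, Slc2a1 and Foxo1. The median log2 fold change of the 10 was -0.12, beside 0.071 over all tested genes. When each library was scaled to its adipocyte markers instead, all 10 were higher in HEP, and the median of all genes was 0.47. Adjusted limma p-values ran from 0.879 to 0.967.

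**Figure D1:**
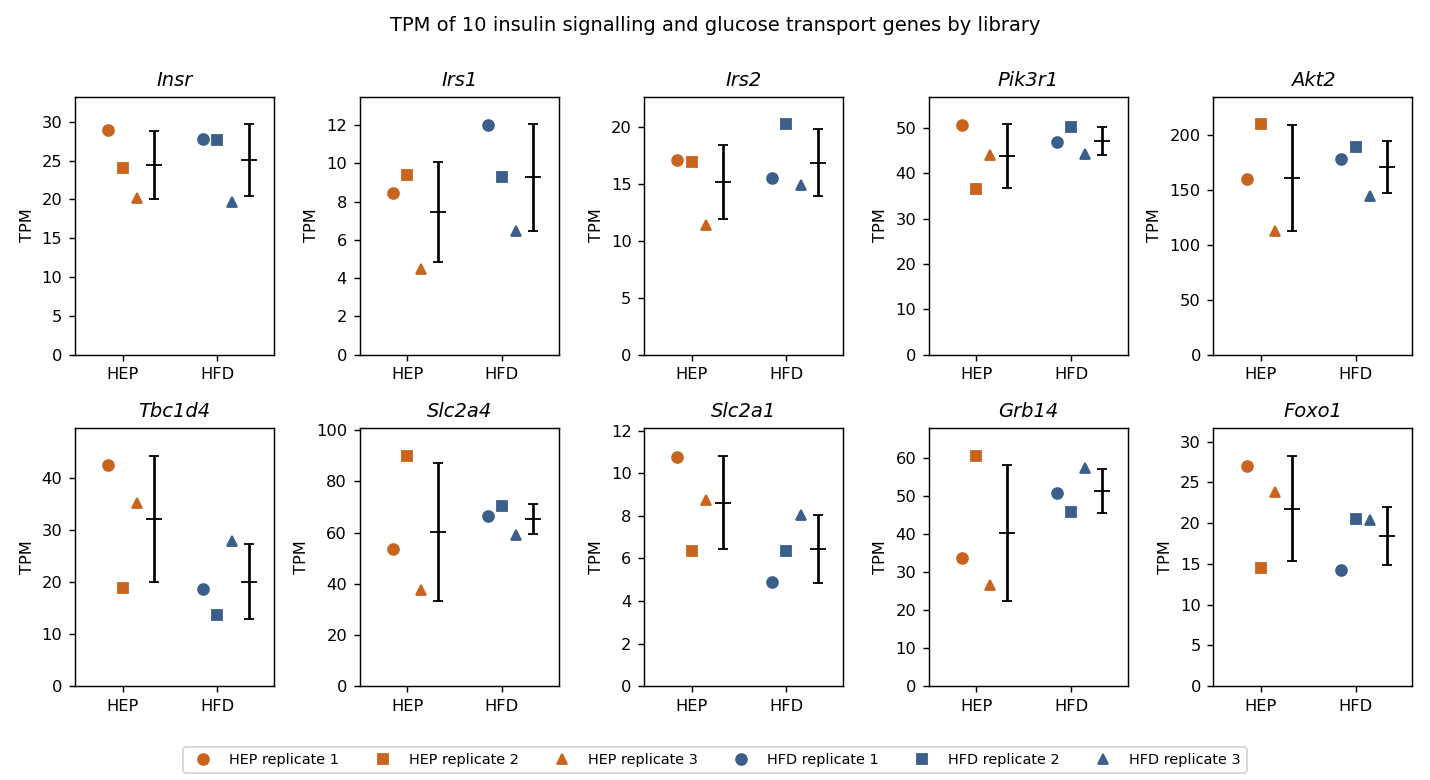
TPM of each gene (vertical axis, from 0) in the 3 HEP and 3 HFD libraries, with the symbol giving the replicate and the black bar the group mean ± SD (n = 3). HEP and HFD values overlap for all 10 genes, and Slc2a4 runs from 37.4 to 90.0 TPM in HEP against 58.9 to 70.4 TPM in HFD.

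Of the genes for the receptor and its substrates, Insr differed least between the diets. Insr had 28.9, 24.0 and 20.2 TPM in HEP replicates 1 to 3 and 27.9, 27.6 and 19.7 TPM in HFD replicates 1 to 3. Replicate 3 was the lowest library of each group, and the ranges nearly coincided. The log2 fold change of Insr was -0.036 ± 0.21 (SE) with a 95% interval of -0.55 to 0.47, and it ran from -0.19 without HFD replicate 3 to 0.087 without HEP replicate 3.

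Irs1 had 8.47, 9.41 and 4.49 TPM in HEP and 12.0, 9.29 and 6.47 TPM in HFD. The highest library was HFD replicate 1 and the lowest HEP replicate 3, and the log2 fold change of -0.30 ± 0.33 (SE) was smaller than its error. That difference rested on HEP replicate 3, without which it was -0.011, and was -0.11 without HFD replicate 1. Without HEP replicate 2 or HFD replicate 3 it was -0.47 and -0.51.

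Irs2 had 17.1, 16.9 and 11.4 TPM in HEP and 15.5, 20.2 and 14.9 TPM in HFD, so 2 HEP libraries lay inside the HFD range and replicate 3 lay below it. Its log2 fold change was -0.16 ± 0.22 (SE), and 0.023 without HEP replicate 3. Leaving out HEP replicate 1 gave -0.25 and leaving out HEP replicate 2 gave -0.24. The value was -0.025 when HFD replicate 2 was left out. In mouse fat a further substrate gene, Irs3, stood at a similar level, with 13.3, 35.9 and 12.5 TPM in HEP and 24.4, 27.1 and 19.0 TPM in HFD. Irs3 was highest in HEP replicate 2 and lowest in HEP replicates 1 and 3, as Slc2a4 was. Irs4, the remaining substrate gene of the family, was listed at 0 in all 6 libraries. Irs1 made up 17.6 ± 3.65% of the summed TPM of Irs1 to Irs4 in HEP and 18.6 ± 4.03% in HFD (mean ± SD, n = 3). Insr made up 84.9 ± 4.83% of the sum of Insr and Igf1r, the related receptor for insulin-like growth factor, in HEP and 86.8 ± 2.62% in HFD.

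Downstream of the substrates, Pik3r1 varied least among the 10 genes and Akt2 stood at the highest level. Pik3r1 had 50.6, 36.5 and 44.1 TPM in HEP and 46.8, 50.2 and 44.2 TPM in HFD, with the lowest level in HEP replicate 2. Its coefficient of variation over the 6 libraries was 11.5%, where the median of all tested genes was 25.9%. The log2 fold change of Pik3r1 was -0.11 ± 0.16 (SE), and it was 0.0063 without HEP replicate 2. Leaving out HEP replicate 1 gave -0.22, and leaving out HFD replicate 2 gave -0.068.

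Akt2 had 160, 210 and 113 TPM in HEP and 178, 189 and 144 TPM in HFD. HEP replicate 2 was the highest and HEP replicate 3 the lowest library, so the HFD values lay inside the HEP range. Its log2 fold change was -0.12 ± 0.25 (SE), was 0.11 without HEP replicate 3 and was -0.34 without HEP replicate 2. Leaving out an HFD library gave -0.087, -0.043 and -0.24 for replicates 1 to 3. Akt1, the widely expressed family member, had 64.4, 47.8 and 55.5 TPM in HEP and 41.8, 56.5 and 56.5 TPM in HFD. Pik3r1 made up 68.4 ± 2.48% of the regulatory subunit transcripts in HEP and 68.7 ± 0.837% in HFD. Pik3r2 and Pik3r3, which encode other regulatory subunits, stayed between 5.87 and 15.5 TPM in HEP and between 7.21 and 15.4 TPM in HFD.

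The inhibitory adaptor gene Grb14 had the largest lower difference among the 10. It had 33.6, 60.6 and 26.7 TPM in HEP and 50.7, 45.8 and 57.5 TPM in HFD. HEP replicates 1 and 3 lay below every HFD library, and HEP replicate 2 above them all. The log2 fold change of Grb14 was -0.42 ± 0.31 (SE) with a 95% interval of -1.16 to 0.32. Without HEP replicate 2 it was -0.75 (adjusted limma p 0.207, and 0.00646 before adjustment), and without HEP replicate 3 it was -0.17. Grb10, which encodes a related adaptor, had 15.8, 17.1 and 11.9 TPM in HEP and 18.0, 19.5 and 15.2 TPM in HFD. Grb7, the last gene of that family, stayed at 0.67 to 1.49 TPM in HEP and 0.95 to 1.04 TPM in HFD. Grb14 made up 70.4 ± 5.39% of the sum over the family in HEP and 73.3 ± 4.47% in HFD.

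The GLUT4 gene Slc2a4 varied far more within HEP than within HFD. It had 53.5, 90.0 and 37.4 TPM in HEP and 66.6, 70.4 and 58.9 TPM in HFD, with a mean of 60.3 ± 26.9 TPM in HEP and 65.3 ± 5.90 TPM in HFD (SD, n = 3). HEP replicate 2 stood above all HFD libraries and the other HEP libraries below them. The log2 fold change of -0.20 ± 0.32 (SE) had a 95% interval of -0.96 to 0.56. Without HEP replicate 2 it was -0.53 (adjusted limma p 0.207, and 0.0390 before adjustment). That library had 11746 TPM of muscle markers and was also the only HEP library low in lymphocyte genes. It was also the library highest in liver markers, with 1024 TPM of Alb against 9.2 and 39.3 TPM in HEP replicates 1 and 3. Leaving it out changed all of these contents, and their parts were not separated. The log2 fold change of Slc2a4 was 0.091 without HEP replicate 3. GLUT4 is also the transporter of skeletal muscle, and the part of muscle RNA in the value of HEP replicate 2 was not tested. Per 1000 TPM of Adipoq, Slc2a4 stood at 22.4, 22.9 and 17.4 TPM in HEP and 19.2, 16.7 and 20.4 TPM in HFD.

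Tbc1d4, which encodes the AKT substrate on the GLUT4 pathway, had the largest difference of the 10. It had 42.6, 18.8 and 35.2 TPM in HEP and 18.8, 13.6 and 28.0 TPM in HFD. The highest values were in HEP replicates 1 and 3, followed by HFD replicate 3, and HEP replicate 2 lay inside the HFD range. The log2 fold change was 0.63 ± 0.38 (SE), with a 95% interval of -0.28 to 1.55 (adjusted limma p 0.879, and 0.142 before adjustment). It was higher in HEP in all 18 alternative fits, by 0.27 to 1.07. The lowest value came with lymphocyte content as a covariate. The highest came with scaling to adipocyte markers, where the median of all tested genes was itself 0.47. Several of the 18 fits changed only the filter, the blocking or the error estimate and left the log2 fold change at 0.63. Without HEP replicate 2 it was 0.97 (adjusted limma p 0.207, and 0.0249 before adjustment), and without HEP replicate 1 or HFD replicate 2 it was 0.40. Its relative Tbc1d1, which is better known from muscle, had 21.6, 8.25 and 19.5 TPM in HEP and 7.94, 11.1 and 16.5 TPM in HFD. Tbc1d1 too was highest in HEP replicates 1 and 3, then HFD replicate 3, the libraries rich in B and T cell markers. Of all tested genes 30.5% were higher in all of these libraries than in the rest. Tbc1d4 made up 66.8 ± 2.59% of the sum of both in HEP and 62.7 ± 7.64% in HFD.

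Slc2a1, the GLUT1 gene, was expressed at a lower level than Slc2a4 in every library. It had 10.7, 6.35 and 8.76 TPM in HEP and 4.87, 6.35 and 8.05 TPM in HFD, so HEP replicates 1 and 3 stood above all HFD libraries. Its log2 fold change was 0.37 ± 0.27 (SE), with a 95% interval of -0.28 to 1.02. It was 0.21 without HEP replicate 1 or HFD replicate 1, and 0.55 without HEP replicate 2. Slc2a4 made up 53.0, 70.3 and 51.5% of the summed TPM of 11 Slc2a transporter genes in HEP and 66.2, 66.3 and 61.9% in HFD. HEP replicates 1 and 3 thus had the lowest GLUT4 shares and HEP replicate 2 the highest. HFD replicate 3 came next to the lowest, so the 3 libraries rich in lymphocyte genes had the 3 lowest shares. The mean share was 6.58 percentage points lower in HEP (exact two-sided permutation p = 0.40, with 0.1 the smallest that 3 against 3 allows). Leaving out HEP replicate 2 made this difference -12.6 points, while leaving out HEP replicate 1 or 3 made it -3.96 or -3.19 points.

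Foxo1, the transcription factor at the end of the pathway, had 27.0, 14.5 and 23.9 TPM in HEP and 14.3, 20.5 and 20.4 TPM in HFD. HEP replicates 1 and 3 were above all HFD libraries, and HEP replicate 2 was close to the lowest of them. The log2 fold change of Foxo1 was 0.20 ± 0.28 (SE). Leaving out HEP replicates 1, 2 and 3 in turn gave 0.035, 0.46 and 0.12, and leaving out HFD replicate 1 gave 0.042. Foxo4, another factor of the family, stood at a higher level than Foxo1 in all 6 libraries, with 28.9, 35.5 and 26.4 TPM in HEP and 27.7, 34.4 and 27.4 TPM in HFD. Foxo3 stood at 7.70 to 12.5 TPM in HEP and 7.74 to 11.4 TPM in HFD, and Foxo6 stayed between 0 and 0.2 TPM in all libraries. Foxo1 made up 34.5 ± 8.18% of the family in HEP and 31.6 ± 3.20% in HFD. The family shares given here had exact two-sided permutation p-values of 0.40 to 0.90, and of 0.686 to 0.90 when adjusted over the 8 shares tested.

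**Figure D2:**
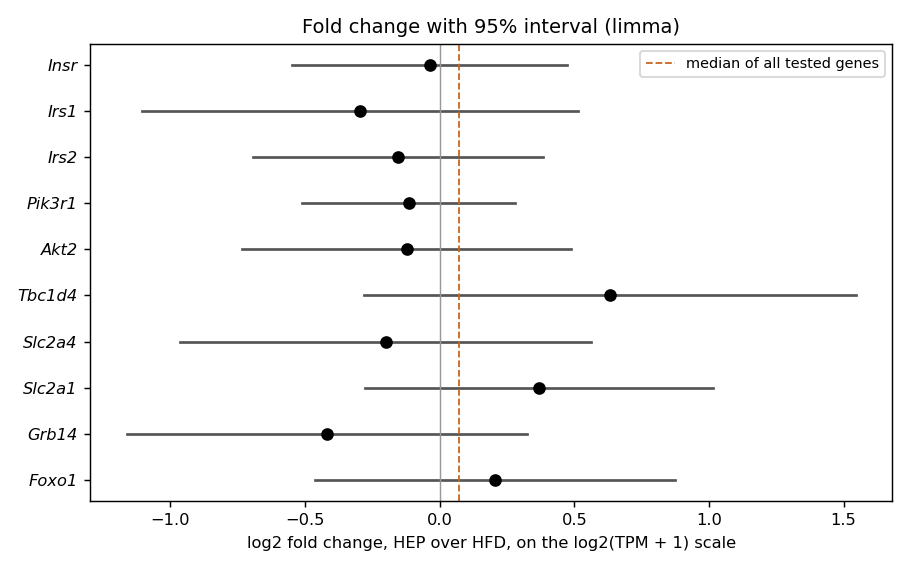
Log2 fold change of each gene, HEP over HFD, on the log2(TPM + 1) scale (horizontal axis), as a point with its 95% limma interval (line). Every interval crosses 0, with Tbc1d4 highest at 0.63 and Grb14 lowest at -0.42, and the dashed line marks the median of all tested genes at 0.071.

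**Figure D3:**
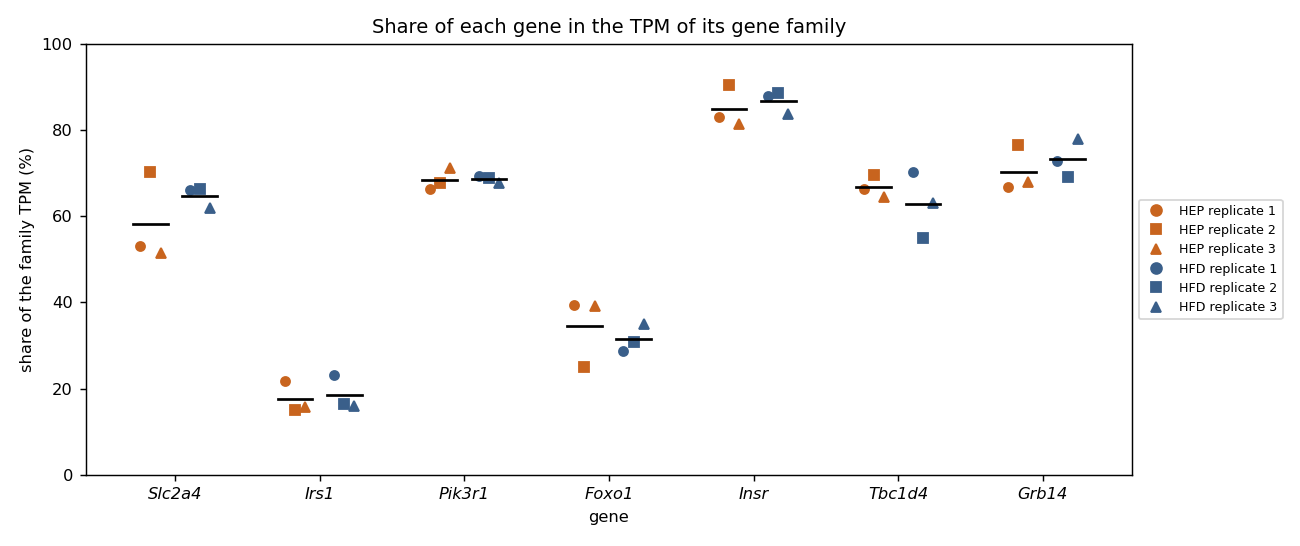
Share of each gene in the summed TPM of its gene family (vertical axis, percent), for the 3 HEP libraries (left) and 3 HFD libraries (right) of each pair, with bars at the group means. Slc2a4 and Insr have their highest shares in HEP replicate 2, and the groups overlap for every family drawn.

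The 10 genes were also set beside the lymphocyte content of the libraries, with which many genes of the table moved. Tbc1d4 and Slc2a1 were higher in every one of the 3 libraries rich in lymphocyte genes (HEP replicates 1 and 3 and HFD replicate 3) than in the other 3, which 30.5% of all tested genes also were. Irs1, Akt2 and Slc2a4 were lower in all 3 of them than in the other 3, against 13.7% of all tested genes. The other 5 genes overlapped. Foxo1 did so only narrowly, with 20.44 TPM in HFD replicate 3 and 20.5 TPM in HFD replicate 2. It averaged 23.8 TPM in the 3 rich libraries and 16.4 TPM in the other 3. Tbc1d4 averaged 35.2 TPM in the 3 rich libraries and 17.1 TPM in the other 3, and Slc2a4 averaged 49.9 and 75.7 TPM in the same libraries. Among the 3 libraries low in lymphocyte genes, Tbc1d4 had 18.8 TPM in HEP replicate 2 and 18.8 and 13.6 TPM in HFD replicates 1 and 2, and Slc2a1 had 6.35 TPM in HEP replicate 2 and 4.87 and 6.35 TPM in HFD replicates 1 and 2. Among the rich ones, Tbc1d4 had 42.6 and 35.2 TPM in HEP replicates 1 and 3 and 28.0 TPM in HFD replicate 3. With lymphocyte content as a covariate, the log2 fold change of Tbc1d4 was 0.27, that of Slc2a1 0.16 and that of Slc2a4 0.063. With lymphocyte and muscle content both as covariates, Tbc1d4 was at 0.27, Slc2a1 at -0.054 and Slc2a4 at -0.36. Their unadjusted limma p-values were 0.387, 0.852 and 0.155 in that order. The median of all tested genes was then -0.11, and 6 libraries leave such a fit little residual information. The part of lymphocyte RNA in the levels of these genes was not tested otherwise.

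The genes with profiles most like Slc2a4, Irs1 and Irs2 were found by the root-mean-square difference of centred log2(TPM + 1) over the 6 libraries, among 8075 genes that averaged 10 TPM or more. Nearest to Slc2a4 was Sqor, a mitochondrial sulfide oxidase gene, with a difference of 0.045 on the log2 scale, where Slc2a4 itself varied by 0.38 about its mean. Pdzrn3, Trarg1, Rxrg and Slc22a3 followed at 0.052 to 0.072. Trarg1 encodes a regulator of GLUT4 vesicle trafficking in fat cells and had 207, 322 and 146 TPM in HEP and 244, 289 and 231 TPM in HFD. It was highest in HEP replicate 2 and lowest in HEP replicate 3, as Slc2a4 was, which follows from its choice by likeness of profile. Nearest to Irs1 were Aox1, Immp2l, Rapgef3, Fgfr1 and Ltbp3, at 0.060 to 0.090. Nearest to Irs2 were Dok4, Gab1, Acvrl1, Adarb1 and Mfng, at 0.041 to 0.049. Dok4 and Gab1 encode docking proteins downstream of receptor tyrosine kinases, and Gab1 had 12.0, 12.5 and 7.95 TPM in HEP and 10.4, 14.1 and 10.8 TPM in HFD. These likenesses are descriptions over 6 libraries that share the differences in cell content.

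Among 113 other tested genes of the pathway, in 8 lists, 0 passed at an adjusted p under 0.05. At an unadjusted limma p under 0.05, 1 gene was higher in HEP (background 0.68%) and 0 were lower (background 1.13%). Without HEP replicate 2 these counts were 22 higher (background 17.5%) and 9 lower (background 6.36%). In 2 genes all HEP values lay above all HFD values (background 1.88%) and in 5 all lay below (background 3.58%). The median log2 fold change of the 113 was 0.060, beside 0.071 for all tested genes. Of the 113, 64 were higher in HEP (background 58.6%) and 49 lower (background 41.4%). The same background applies to the counts of each list below. The gene with the unadjusted p under 0.05 was Pik3ca, the catalytic subunit partner of the Pik3r1 product, with 28.4, 23.6 and 28.1 TPM in HEP and 16.3, 23.0 and 19.0 TPM in HFD. Its lowest HEP value lay just above its highest HFD value, and the log2 fold change of Pik3ca was 0.45 ± 0.18 (SE; adjusted limma p 0.879, and 0.0457 before adjustment). Its unadjusted limma p was above 0.05 when replicate 1 or 3 of either group was left out. The 5 genes lower without overlap were Klf15, Trib3, Pygb, Slc2a10 and Pfkl, the liver-type phosphofructokinase gene. Pfkl, named after its values were seen, had 24.3, 25.1 and 24.2 TPM in HEP and 26.4, 29.7 and 26.7 TPM in HFD. The smallest adjusted limma p of every list was 0.879.

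Of 10 tested receptor and adaptor genes, 6 were higher and 4 lower in HEP, with a median log2 fold change of 0.10 and 0 at an unadjusted p under 0.05. Sh2b1, an adaptor that enhances receptor signalling, averaged 17.8 ± 4.53 TPM in HEP and 14.1 ± 0.969 TPM in HFD. Grb2, the adaptor towards RAS, averaged 96.0 ± 31.0 TPM in HEP and 74.2 ± 12.8 TPM in HFD. In the PI3K, AKT and mTORC2 list 7 of 11 genes were higher in HEP, with a median of 0.095. Pik3cb, a further catalytic subunit gene, averaged 14.8 ± 2.05 TPM in HEP and 17.4 ± 3.01 TPM in HFD, and Mtor 9.46 ± 0.990 TPM in HEP and 10.7 ± 1.18 TPM in HFD. The mTORC1 list had 5 of 9 genes higher and a median of 0.0015. Tsc1 and Tsc2, whose products together restrain mTORC1, averaged 6.89 ± 2.84 and 28.2 ± 4.25 TPM in HEP and 4.67 ± 0.191 and 25.4 ± 3.50 TPM in HFD. Rps6, the ribosomal protein that S6 kinase phosphorylates, had 1580, 674 and 1680 TPM in HEP and 584, 756 and 1331 TPM in HFD. The 3 high libraries of Rps6 were those rich in lymphocyte genes, and Sh2b1 and Grb2 were likewise highest in those 3. Of all tested genes 30.5% had that order. Pik3cb was lower in those 3 libraries than in the others (background 13.7%).

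The brakes on insulin signalling had 9 of 14 tested genes higher in HEP (background 58.6%), with a median of 0.17. That median was 0.043 without HEP replicate 1 and 0.27 without HEP replicate 2. Socs3, a cytokine-induced inhibitor of the receptor pathway, had 11.01, 4.27 and 7.91 TPM in HEP and 3.61, 3.41 and 7.31 TPM in HFD. Its 3 highest values were again in the lymphocyte-rich libraries, an order that 30.5% of all tested genes had. Ptpn11, which encodes the phosphatase SHP2, averaged 41.7 ± 3.67 TPM in HEP and 50.8 ± 10.7 TPM in HFD. Trib3, a pseudokinase that binds AKT, had 7.70, 8.21 and 5.10 TPM in HEP and 8.53, 8.35 and 8.57 TPM in HFD, without overlap, at a log2 fold change of -0.27 ± 0.22 (SE). In the GLUT4 trafficking list 13 of 25 genes were higher and 12 lower, with a median of 0.00091. Sort1, the sortilin gene of GLUT4 vesicle formation, had 67.3, 72.2 and 55.4 TPM in HEP and 83.9, 101 and 66.9 TPM in HFD. HEP replicates 1 and 2 lay inside the HFD range and HEP replicate 3 below it, and its log2 fold change was -0.35 ± 0.20 (SE). Sort1 was lower in the 3 lymphocyte-rich libraries than in the others (background 13.7%). Gga2, a clathrin adaptor gene, averaged 41.6 ± 13.7 TPM in HEP and 31.9 ± 4.85 TPM in HFD. Like Socs3, it had its 3 highest values in the lymphocyte-rich libraries. Ralgapa2, a subunit gene of a complex that restrains the small GTPase RALA, averaged 8.03 ± 1.82 TPM in HEP and 9.52 ± 0.645 TPM in HFD.

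The other glucose transporters had 4 of 8 tested genes higher and 4 lower, with a median of 0.0027. Slc2a9, known as a urate transporter, had 6.43, 3.79 and 4.21 TPM in HEP and 2.77, 2.95 and 3.57 TPM in HFD, without overlap. Slc2a10 had 1.81, 1.97 and 1.52 TPM in HEP and 2.23, 3.99 and 2.32 TPM in HFD, also without overlap and in the opposite direction. Slc2a3, the GLUT3 gene, had 13.1, 4.10 and 9.40 TPM in HEP and 3.78, 4.02 and 6.60 TPM in HFD, highest in the 3 lymphocyte-rich libraries (background 30.5%). The liver transporter gene Slc2a2 reached 4.65 TPM in HEP replicate 2 and 3.62 TPM in HFD replicate 1, the libraries highest in Alb, and at most 0.25 TPM in the others. Slc2a8 had 5.44 to 11.3 TPM in HEP and 8.84 to 11.6 TPM in HFD, while Slc2a5, Slc2a6, Slc2a12 and Slc2a13 stayed under 5 TPM in every library. The glucose phosphorylation, glycogen and glycolysis list had 12 of 22 genes higher and a median of 0.034. Pygb, a glycogen phosphorylase gene, had 58.8, 51.8 and 48.8 TPM in HEP and 62.7, 68.9 and 60.5 TPM in HFD, without overlap. Pfkm, the muscle phosphofructokinase gene, had 32.7, 223 and 8.21 TPM in HEP and 10.9, 20.7 and 10.2 TPM in HFD, highest where muscle markers were highest. Pygl, the liver-type glycogen phosphorylase gene, averaged 53.5 ± 12.1 TPM in HEP and 64.4 ± 8.83 TPM in HFD. Of 14 FOXO factors and targets 8 were higher and 6 lower, with a median of 0.038. Klf15, a glucocorticoid-induced transcription factor gene, had 16.0, 21.4 and 9 TPM in HEP and 23.9, 25.5 and 22.2 TPM in HFD, without overlap. Bcl6, also a germinal centre B cell factor, had 19.1, 11.1 and 24.7 TPM in HEP and 9.71, 9.18 and 12.9 TPM in HFD. It was highest in the 3 lymphocyte-rich libraries, as Slc2a3 was. Sod2, the mitochondrial superoxide dismutase gene, averaged 111 ± 33.1 TPM in HEP and 150 ± 19.5 TPM in HFD. Sod2 and Pygl were lower in the 3 lymphocyte-rich libraries than in the others (background 13.7%).

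**Figure D4:**
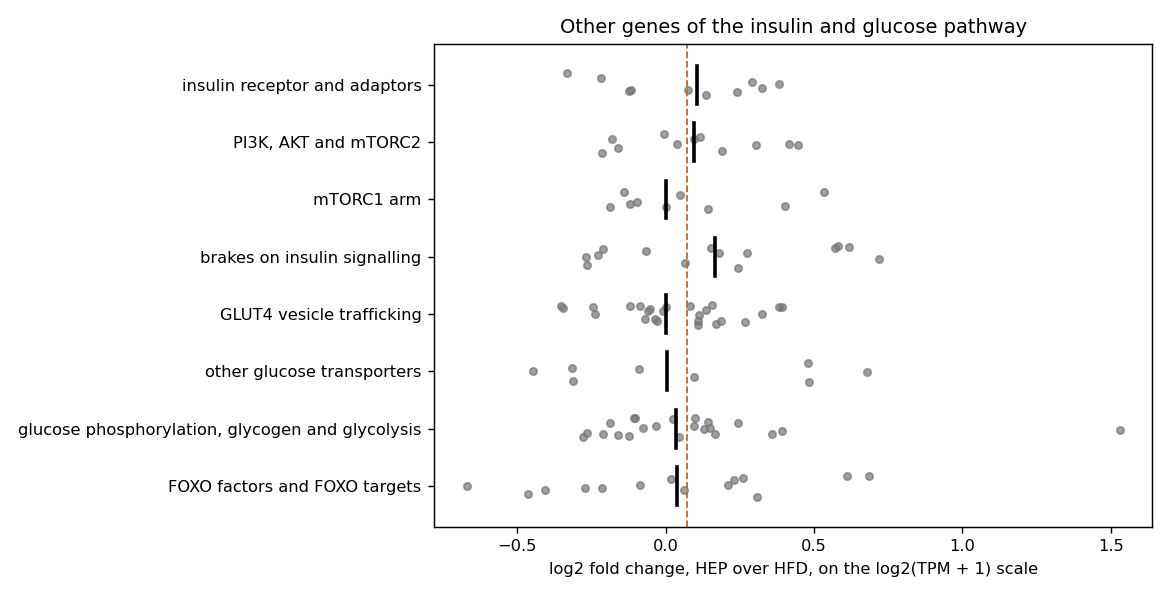
Log2 fold change, HEP over HFD, of the other tested genes of the pathway (grey points) by list, with the list median as a black bar. List medians lie between 0.00091 and 0.17, and the dashed line marks the median of all tested genes, 0.071, and the point at 1.53 is Pfkm.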

How the data were processed

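RNA of 3 HEP and 3 HFD samples was sequenced. Per the labels' protocols, TRIzol was used for RNA and a TruSeq kit with 15 PCR cycles for libraries. The deposited TPM values were made by the authors, with HISAT2, StringTie, RSEM, fastp and DESeq2 among their tools per the submitters' processing notes, which give no roles or versions. Genome build, annotation and strandedness: not given in the sources used here. TPM keeps no depth, so depth is unknown and no counting interval is given, and RNA of one abundant cell type lowers all other values of its library. Genes overlapping the 10 in GENCODE M21 with values in the table had at most 2.74 TPM.

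Genes averaging 1 TPM or more were compared in limma 3.58.1 (R 4.3.3) on log2(TPM + 1) with an intensity trend, two-sided, with Benjamini-Hochberg adjustment over all genes tested and a threshold of 0.05. This scale understates the change of low genes. The fit was tested on simulated data. Family shares were compared with exact permutation tests. The members, although listed by name, and the lists were chosen with earlier results of these data known. Named genes are the 10, their families, the 3 smallest p-values of each list, 2 markers at most per list, and the 5 nearest profiles of Slc2a4, Irs1 and Irs2. Of 123 listed pathway genes 122 were in the table. Protein sequences were not used here, and 1 of the 8 family shares and some genes that the naming rule covers are not reported here.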

Additional observations from a re-analysis of the deposited data

How the results depend on the processing

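The 10 genes were refitted under 18 alternatives, and 0 had an adjusted limma p under 0.05 in any of them, where the lowest was 0.119 with sample quality weights. Tbc1d4 kept its direction in all 18, several of which cannot move a fold change. Adipocyte scaling moved the median of all genes to 0.47 and turned Insr (0.41), Irs1 (0.11), Irs2 (0.28), Pik3r1 (0.34), Akt2 (0.33), Slc2a4 (0.25) and Grb14 (0.027), all below that median. The lymphoid covariate turned Insr (0.053), Akt2 (0.087), Slc2a4 (0.063) and Foxo1 (-0.015), and lymphoid and muscle covariates turned Slc2a1 (-0.054) and Foxo1 (-0.13).

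Leaving out 1 library moved the log2 fold change of Insr between -0.19 and 0.087, Irs2 between -0.25 and 0.023, Pik3r1 between -0.22 and 0.0063, Akt2 between -0.34 and 0.11 and Slc2a4 between -0.53 and 0.091. It moved the share difference of Irs1 between -3.07 and 1.36 percentage points and of Pik3r1 between -1.61 and 0.79. Over all genes 0 to 1 were higher at an adjusted limma p under 0.05, the 1 being Gm25541 without HEP replicate 2. Pik3r1's share of Pik3r1 and Pik3r2 was 0.845 points higher in HEP.

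Leaving out 1 library also moved list medians between -0.049 and 0.28 for receptor and adaptors, 0.043 and 0.27 for brakes, -0.32 and 0.17 for other glucose transporters and -0.11 and 0.13 for FOXO factors and targets. Pathway genes at an unadjusted limma p under 0.05 numbered 0 to 22 higher and 0 to 9 lower, most without HEP replicate 2. In that fit 17.5% of all tested genes were higher at that p and 6.36% lower. Adipocyte scaling moved the medians to 0.52 (receptor and adaptors), 0.53 (PI3K, AKT and mTORC2), 0.45 (mTORC1), 0.59 (brakes), 0.45 (GLUT4 trafficking), 0.16 (other transporters), 0.45 (glycolysis) and 0.47 (FOXO), beside 0.47 for all tested genes. At an unadjusted limma p under 0.05, 14 pathway genes were higher there, and 5.29% of all tested genes passed in either direction. Medians with both covariates were -0.11 for receptor and adaptors, -0.14 for mTORC1, -0.16 for GLUT4 trafficking, -0.21 for other transporters and -0.050 for FOXO, beside -0.11 for all tested genes. At that p 2 pathway genes were lower (Klf15 and Trarg1), and 2.48% of all tested genes passed in either direction. With the lymphoid covariate the FOXO median was -0.035, beside -0.0062 for all tested genes. At that p 2 pathway genes were then higher (Gapdh and Pfkm), and 3.46% of all tested genes passed in either direction. The median of other transporters was -0.11 and -0.28 at pseudocounts of 0.1 and 0.01, 0.18 at a mean of at least 5 TPM, -0.15 with quantile normalization and -0.41 with sample quality weights. The FOXO median was -0.094 with quantile normalization and -0.086 with quality weights. Quality weights gave 21 pathway genes higher and 19 lower at that p, where 32.9% of all tested genes passed in either direction. Median-of-ratios scaling gave 0 higher (1.83% of all tested genes passed), and quantile normalization 0 higher and 1 lower, Pygb (2.87% passed). The median of all tested genes was itself -0.063 with quantile normalization, 0.040 with quality weights and 0.076 at either smaller pseudocount. The cause of the shifts in the list medians was not tested.

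The labels did not say whether replicate numbers pair the samples. Deviations of same-numbered libraries correlated at -0.35, 0.37 and 0.65, and HEP replicate 2 correlated best with HFD replicate 1. These correlations cannot decide on a pairing, because the libraries also differ in cell content. With the replicate block 3 pathway genes (Klf15, Sod2 and Sort1) were lower at an unadjusted limma p under 0.05, Bcl6 was higher in place of Pik3ca, and Tbc1d4 at 0.63 had an adjusted limma p of 0.753 (0.0423 before adjustment). With that block 3.73% of all tested genes passed at that unadjusted p.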
